A study of Mus musculus with 6 samples.

Results

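The genes of antigen presentation were described in the cochlea, where sound is turned into nerve signals, of mice at postnatal day 7. Members were the protein-coding genes of the deposited table whose symbol starts with H2-, the mouse name of the major histocompatibility complex (MHC), together with B2m, Tap1, Tap2, Tapbp, Psmb8, Psmb9, Cd74, Ciita and Nlrc5. This gave 34 of the 30462 genes in the table. They were 16 class I heavy chain genes, 11 class II genes (chains, peptide exchange proteins, Cd74 and Ciita) and 7 other class I genes. The last are called peptide supply genes below, although they include the light chain gene B2m and the regulator Nlrc5 beside the transporter genes, Tapbp and the immunoproteasome genes. The study compared 3 cochlear RNA libraries labelled NEU4 KO (knockout replicates 2, 4 and 5) with 3 labelled WT (wild type replicates 3, 4 and 5). The product of Neu4 is a sialidase, which cuts sialic acid off sugar chains. The labels do not give the strain, the sex, the design of the Neu4 allele or the number of animals behind a library, so p-values measure the spread between these libraries.

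MHC class I molecules sit on nearly all nucleated cells and show CD8 T cells short peptides cut from proteins made inside the cell. A heavy chain pairs with beta-2-microglobulin (B2m), the peptides are cut by the proteasome, pumped into the endoplasmic reticulum by TAP1 and TAP2, and loaded with the help of tapasin (Tapbp). Class II molecules are made mainly by macrophages, dendritic cells and B cells, are escorted by the invariant chain (Cd74) and exchange its remnant for peptides of engulfed proteins with the help of H2-DM. In the cochlea the resident macrophages are the main cells known for class II.

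The table holds FPKM, sequenced fragments scaled to exon length and library size, so that levels of different genes can be compared per length. Library totals implied by the values were 15170973 to 17192293 fragments. The targeted gene did not check the labels. Neu4 had 4, 8 and 6 fragments in knockouts 2, 4 and 5, and the wild types had 4, 8 and 6, with an exact two-sided permutation p = 0.8 on FPKM, where 3 against 3 libraries cannot go below 0.1. Directions below therefore refer to libraries labelled knockout. Of all genes, 14072 reached an FPKM of 1 in 3 or more libraries and were tested on log2(FPKM + 1), a scale that understates the change of low genes, and 47 passed an adjusted p of 0.05 (limma, Benjamini-Hochberg), 18 higher and 29 lower (11 and 33 with median-ratio scaling, 224 and 166 with voom, a limma method on fragments recovered from the FPKM).

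Promoter sequences are shown first, because class I and class II genes are known to share a stretch of DNA through which their regulators NLRC5 and CIITA act. In that stretch an X box, which holds a site for CREB-like factors, is followed by a Y box, the inverted CCAAT site of the factor NF-Y. RefSeq promoters (GRCm38.p6) were found for 27 of the 34 members, and for none of H2-Ab1, H2-Q1, H2-T24, Cd74, Ciita, Tap2 and Nlrc5. The 4 stretches below are those of the light chain gene, a classical heavy chain gene and a gene of each of the class II molecules I-A and I-E. Those of H2-D1, which also holds all the elements, H2-Q4, H2-M3 and H2-DMb1 overlap an annotated exon and are not shown. Capitals mark TGANG (N is any base) and ATTGG, in H2-K1 also GGGGATTCC, the core of the enhancer A site bound by NF-kappaB, and in H2-K1 and B2m AANNGAAA on either strand, the core of an interferon-stimulated response element.
H2-K1, chr17:34000348-34000470, minus strand: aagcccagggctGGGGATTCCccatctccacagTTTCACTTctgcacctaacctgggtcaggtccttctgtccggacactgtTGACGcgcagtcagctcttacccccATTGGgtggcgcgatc
B2m, chr2:122147538-122147650, plus strand: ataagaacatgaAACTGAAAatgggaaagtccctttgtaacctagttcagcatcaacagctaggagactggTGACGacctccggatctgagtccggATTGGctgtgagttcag
H2-Aa, chr17:34287855-34287909, minus strand: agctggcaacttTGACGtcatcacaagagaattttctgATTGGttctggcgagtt
H2-Eb1, chr17:34305772-34305824, plus strand: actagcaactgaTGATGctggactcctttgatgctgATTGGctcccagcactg

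Stretches were taken only where ATTGG followed TGANG at 15 to 25 bases, so a similar spacing in these 4 genes was set in advance. TGANG and ATTGG were 20 bases apart in H2-K1 and B2m, 21 in H2-Aa and 19 in H2-Eb1. In the 250 bases before the start site, TGANG followed by ATTGG at 15 to 25 bases, on either strand, was found in 13 of the 27 members, against 2.82% of all 27025 genes with a promoter. The 13 were 6 of 14 class I genes (H2-D1, H2-K1, H2-M3, H2-Q4, H2-Q6 and H2-Q7), 6 of 8 class II genes (H2-Aa, H2-Eb1, H2-Eb2, H2-DMb1, H2-DMb2 and H2-Ob) and B2m. GGGGATTCC on either strand stood in 4 members, H2-D1, H2-K1, H2-Q6 and H2-Q7, and in 69 of all 27025 genes (0.255%). AANNGAAA stood in 11 of 14 class I, 3 of 8 class II and 1 of 5 peptide supply genes, against 23.9% of all genes. The spacing was chosen after these sequences had been read, the class I genes descend from common copies, and a match of letters is a description of the sequence.

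No member passed the test. Of the 34, 17 passed the filter on low values, and 0 of these passed the adjusted threshold (limma; 0 also with voom), where 0.334% of all tested genes were called with limma (0.128% higher, 0.206% lower) and 2.83% with voom. At an unadjusted p under 0.05 there were 2 of 17, H2-Eb1 higher and Tapbp lower, against 17.6% of all tested genes (10.6% higher, 6.99% lower). The 3 libraries of each group did not overlap in 3 of the 17 members (H2-Eb1 higher, Tapbp and H2-T22 lower), against 24.8% of all tested genes (15.2% higher, 9.54% lower). Both shares of the members (11.8% and 17.6%) were below these values. They rest on 2 and 3 genes, too few to set the members apart from the background, and the difference was not tested. The median log2 fold change was 0.02 for the 17 members and 0.02 for all tested genes. By category it was 0.02 for the 7 class I genes (4 higher, 3 lower), 0.17 for the 6 class II genes (all 6 higher) and -0.10 for the 4 peptide supply genes (1 higher, 3 lower). The 1 higher was B2m (0.02), and the median of Tap1, Tap2 and Tapbp alone was -0.15. Across all genes 56.9% were higher.

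**Figure D1:**
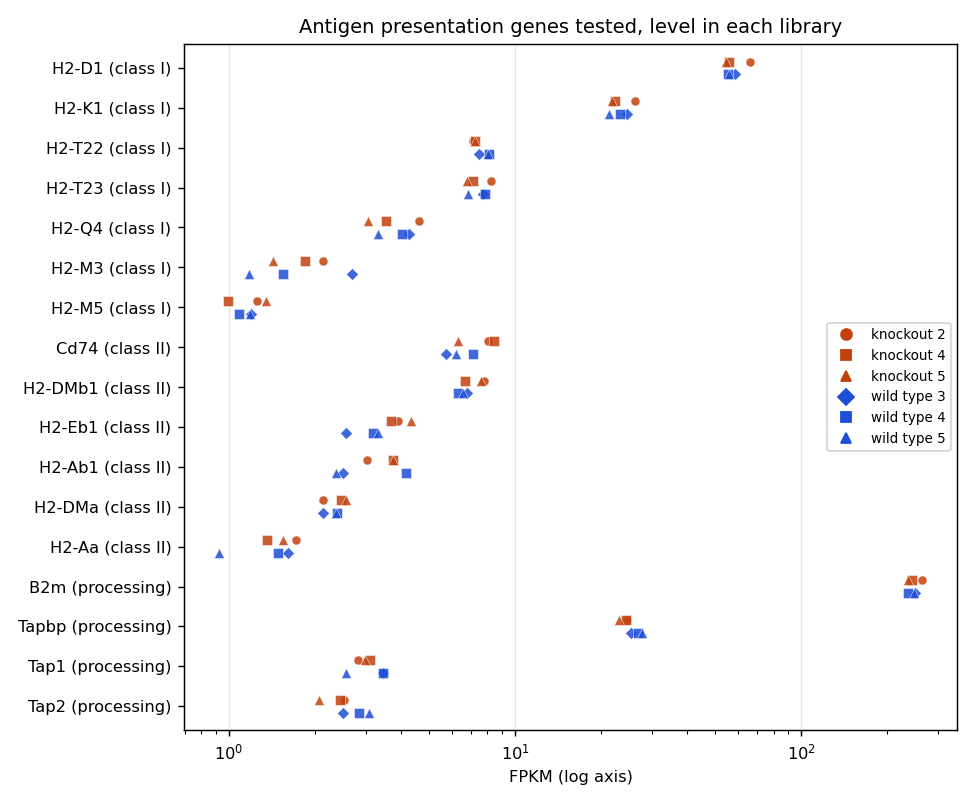
FPKM (log axis) of the 17 members that passed the filter, 1 point per library, knockout in orange and wild type in blue, with the marker shape giving the replicate number. B2m stood at 235 to 265 in all 6 libraries, the class II genes stood between 0.922 and 8.45, and the groups overlapped in 14 of the 17 genes.

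Class I was led by its light chain and the 2 classical heavy chains, which present peptides to CD8 T cells. B2m (ENSMUSG00000060802, chromosome 2, 122147686 to 122153083, GRCm38) had an FPKM of 265, 243 and 235 (knockouts 2, 4 and 5, in that order throughout), and the wild types 3, 4 and 5 had 249, 236 and 248. The highest and the lowest library were both knockout, and the groups overlapped. Its log2 fold change was 0.02, with a 95% interval of -0.11 to 0.15 (SE 0.0554, adjusted p = 0.889, limma), and 3072 to 3793 fragments stood behind each value. H2-D1 (ENSMUSG00000073411, chromosome 17, 35262730 to 35267499) had 66.1, 55.9 and 54.6 in the knockouts and 58.8, 55.6 and 56.0 in the wild types. Knockout 2 was above the other 5 libraries, which lay close together (log2 0.05, interval -0.13 to 0.22). H2-K1 (ENSMUSG00000061232, chromosome 17, 33996017 to 34000347) had 26.3, 22.4 and 21.8 in the knockouts and 24.5, 23.3 and 21.3 in the wild types. Knockout 2 was again the highest, and the rest were interleaved (log2 0.02, interval -0.17 to 0.22). H2-D1 exceeded H2-K1 by a ratio of FPKM of 2.39 to 2.63 in all 6 libraries, and the B2m level was 2.22 to 2.48 times the summed level of the 16 heavy chain genes. H2-D1 and H2-K1 together made up 75.9% to 77.7% of that sum.

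Of the 14 non-classical heavy chain genes, whose products include ligands of natural killer and innate-like T cell receptors, 5 were tested. H2-T22 (chromosome 17, 36037128 to 36042747), related to ligands of gamma-delta T cells, had 7.14, 7.25 and 7.26 FPKM in the knockouts and 7.45, 8.13 and 8.06 in the wild types. Each knockout lay below each wild type, by a log2 of -0.11 with an interval of -0.23 to 0.01 (adjusted p = 0.321, limma). H2-T23, the mouse Qa-1 gene that presents leader peptides to the NKG2A receptor, had 8.23, 7.12 and 6.80 in the knockouts and 7.74, 7.83 and 6.84 in the wild types, which overlapped throughout (log2 -0.02, interval -0.21 to 0.17). H2-Q4 had 4.60, 3.53 and 3.05 against 4.25, 4.01 and 3.33 (log2 -0.05, interval -0.36 to 0.26). H2-M3, which presents peptides that start with formylmethionine, spread more widely within each group than between them, with 2.13, 1.85 and 1.42 in the knockouts and 2.70, 1.54 and 1.17 in the wild types (log2 0.03, interval -0.44 to 0.50). H2-M5 had 0.988 to 1.35 in the knockouts and 1.08 to 1.19 in the wild types. In order of level, H2-T22 and H2-T23 did not differ beyond their spread (means over all libraries 7.55 and 7.43), and H2-Q4 (3.79), H2-M3 (1.80) and H2-M5 (1.17) followed.

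Knockout 2 was the highest library for 7 of the 17 tested members (H2-D1, H2-K1, H2-T23, H2-Q4, B2m, H2-Aa and H2-DMb1), or 41.2%, against 16.8% of all tested genes. By category these were 4 of 7 class I, 2 of 6 class II and 1 of 4 peptide supply genes. The same library was the highest for 8 of 13 tested interferon-stimulated genes (61.5%), so this was not particular to the members. For the other pathway genes described below it was 9 of 45 (20%). Without knockout 2 the direction of H2-D1, H2-K1, H2-M3 and B2m turned, to log2 fold changes of -0.04, -0.06, -0.06 and -0.03, and 6 of the 7 class I genes were then lower. Other libraries turned directions too, always between small uncalled values. Without knockout 5, H2-M5 was at -0.03, H2-Q4 at 0.06 and H2-T23 at 0.03. Without wild type 5, H2-K1 was at -0.03 and H2-M3 at -0.14. Without wild type 4, H2-M3 was at -0.03, B2m at -0.0059 and H2-T23 at 0.01. H2-T23 was also above 0 without knockout 4 (0.0042) and without wild type 3 (0.0063), as was H2-Q4 without wild type 3 (0.0081). The direction of a class I difference therefore rested on single libraries for all of these genes.

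The heavy chain genes are copies of each other, and how their shared reads were assigned is not known here. Of the 50-base words in the GENCODE M21 transcripts of H2-T22, 53.5% also occurred in another gene, first among them the pseudogene H2-T10. The share was 36.4% for H2-Q4, 35.0% for H2-Q6 and 26.5% for H2-Q7. It was 12.8% for H2-D1, 9.63% for H2-K1, 14.5% for H2-T23 and 0.576% for H2-M3. B2m, H2-Ab1, H2-Eb1, H2-Eb2, H2-Ob and Cd74 shared 0 words. Tapbp (29.0% of its exon bases), H2-T22 (29.4%), H2-Q4 (19.1%) and Tap2 (18.5%) also overlap exons of other genes, and the strand setting of the counting is not given, so their levels are less certain than those of B2m or H2-Eb1.

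**Figure D2:**
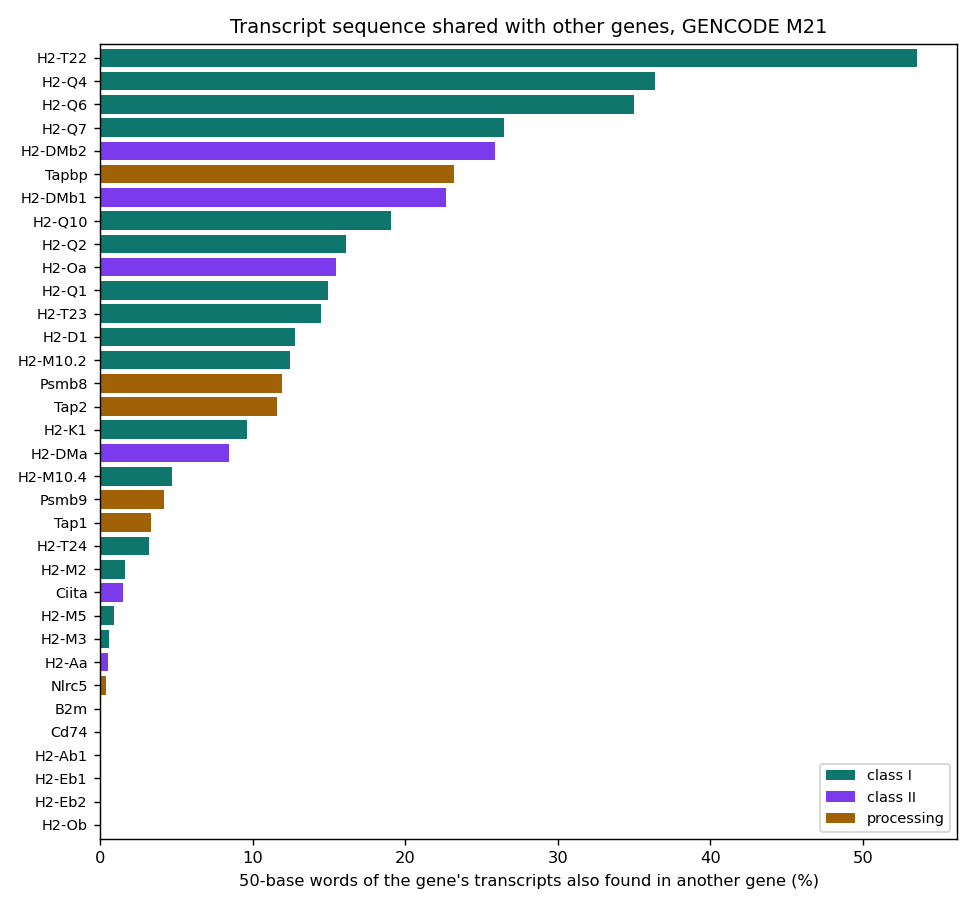
Share (%) of the 50-base words of each member's transcripts that also occur in a transcript of another gene on either strand, coloured by category, 1 bar per member. The shares run from 53.5% for H2-T22 to 0 for 6 genes, and class II chains lie near 0.

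Class II genes were low, and all 6 that were tested had a higher mean in the libraries labelled knockout, with no gene past the threshold. H2-Eb1 (ENSMUSG00000060586, chromosome 17, 34305867 to 34316674), the beta chain of the I-E molecule, was the member with the smallest p. Its FPKM was 3.89, 3.68 and 4.34 in the knockouts, and the wild types had 2.55, 3.17 and 3.31. Each knockout lay above each wild type. The means were 3.97 ± 0.338 and 3.01 ± 0.404 (SD, n = 3), a log2 fold change of 0.31 with an interval of 0.09 to 0.53 (SE 0.0952, unadjusted p = 0.0132, adjusted p = 0.175, limma). The values rested on 121 to 128 fragments in the knockouts and 82 to 106 in the wild types. Over the 17 alternatives that tested it, the adjusted p was 0.153 to 0.423.

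The chains of the other class II molecule, I-A, overlapped between the groups. H2-Ab1, its beta chain (chromosome 17, 34257689 to 34269419), had 3.04, 3.73 and 3.75 in the knockouts and 2.50, 4.14 and 2.36 in the wild types. Wild type 4 was the highest library of all 6 and the other wild types were the lowest (log2 0.19, interval -0.20 to 0.59). H2-Aa, its alpha chain (chromosome 17, 34282744 to 34287823), had 1.71, 1.35 and 1.54 against 1.61, 1.49 and 0.922, so that wild type 5 alone stood below the rest (log2 0.13, interval -0.19 to 0.44). Without wild type 5 the log2 fold change of H2-Aa was -0.01.

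Cd74, the invariant chain gene, had 8.01, 8.45 and 6.32 in the knockouts and 5.74, 7.10 and 6.19 in the wild types. Knockouts 2 and 4 were above all wild types and knockout 5 was among them (log2 0.22, interval -0.04 to 0.49, adjusted p = 0.349, limma). H2-DMb1, the beta chain of the peptide exchange protein H2-DM (chromosome 17, 34153072 to 34160230), had 7.78, 6.68 and 7.61 in the knockouts and 6.77, 6.33 and 6.55 in the wild types. The groups met only at knockout 4 and wild type 3 (log2 0.14, interval -0.01 to 0.30). H2-DMa, the alpha chain, had 2.12, 2.47 and 2.56 against 2.13, 2.38 and 2.36 (log2 0.04, interval -0.15 to 0.23). H2-DMb1 and H2-DMb2 share sequence, with 22.7% of the words of H2-DMb1 found in another gene.

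The 4 class II chain genes summed to 8.64, 8.79 and 9.63 FPKM in the knockouts and 6.67, 8.82 and 6.60 in the wild types. Wild type 4 lay among the knockouts, so that the summed levels overlapped. The 5 peptide exchange genes, of which H2-DMb1 was by far the highest, summed to 10.5, 9.81 and 10.7 in the knockouts and 9.43, 9.02 and 9.21 in the wild types. These sums did not overlap, although the values of H2-DMb1 alone did, and no test was made of a sum. The summed class I heavy chains, at 98.5 to 119 in the knockouts and 100.3 to 109 in the wild types, were 10.2 to 16.3 times as high. In bulk tissue fewer cells of a type and less RNA per cell cannot be told apart.

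**Figure D3:**
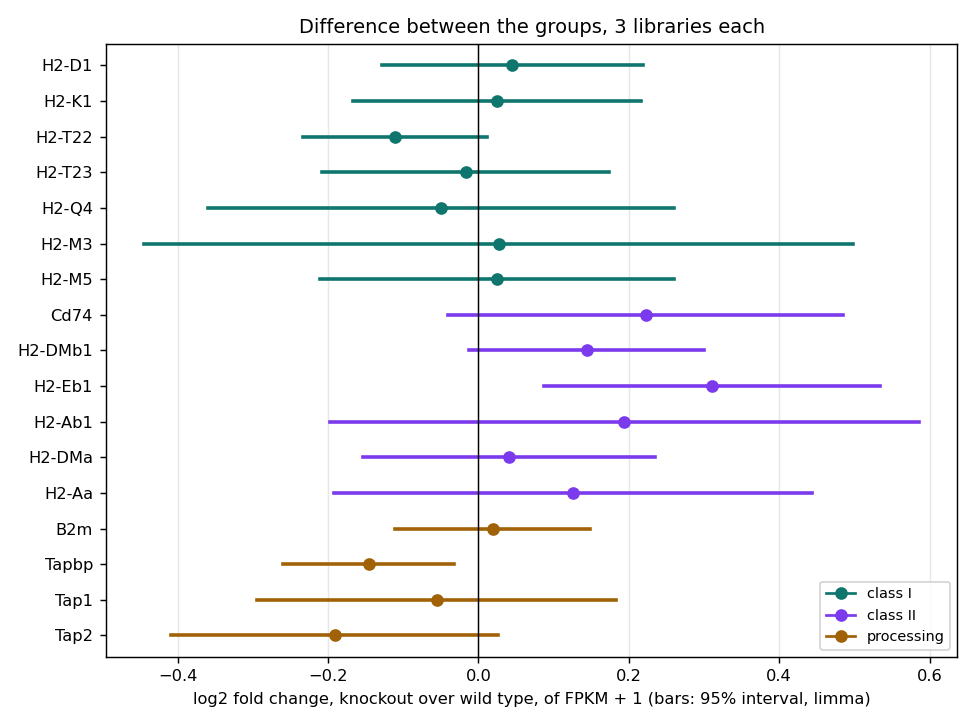
Log2 fold change of FPKM + 1, knockout over wild type (points), with its 95% interval from limma (bars), for the 17 tested members, coloured by category. The 6 class II points lie between 0.04 and 0.31, the 7 class I points between -0.11 and 0.05, and the intervals of H2-Eb1 and Tapbp leave out 0 before adjustment.

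Among the peptide supply genes, Tapbp, which encodes tapasin (ENSMUSG00000024308, chromosome 17, 33915899 to 33929292), had an FPKM of 24.6, 24.3 and 23.1 in the knockouts and 25.4, 26.9 and 27.7 in the wild types. Each knockout lay below each wild type. The log2 fold change was -0.15 with an interval of -0.26 to -0.03 (SE 0.0483, unadjusted p = 0.0187, adjusted p = 0.198, limma), and the adjusted p was 0.158 to 0.377 over its alternatives. Tap2 had 2.52, 2.44 and 2.06 in the knockouts and 2.50, 2.85 and 3.09 in the wild types, which met at knockout 2 and wild type 3 (log2 -0.19, interval -0.41 to 0.03, adjusted p = 0.334, limma). Tap1, its partner in the transporter, had 2.82, 3.11 and 3.00 in the knockouts and 3.44, 3.45 and 2.56 in the wild types. Wild type 5 was the lowest library and the other wild types the highest (log2 -0.06, interval -0.29 to 0.18). Tapbp was 7.39 to 10.8 times the level of Tap1.

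Of the other 17 members, none of which passed the filter, 9 were class I heavy chains, 5 were class II genes and 3 were peptide supply genes. A gene passes that filter through libraries in which it is high, so the counts above hold for the 17 tested genes. Psmb9 and Psmb8, the immunoproteasome subunits induced by interferon-gamma, had 0.666 to 1.30 and 0.537 to 0.944 FPKM. Psmb9 had 79 fragments in knockout 2 and 37 to 51 in the other libraries. Nlrc5, the regulator of class I, had 53, 44 and 30 fragments in the knockouts and 36, 17 and 34 in the wild types. Ciita, the regulator of class II, had 29, 17 and 29 against 17, 18 and 19 (0.105 to 0.200 FPKM in the knockouts and 0.108 to 0.125 in the wild types). Both regulators overlapped between the groups.

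In 3 of these 17 genes the groups did not overlap in FPKM (H2-DMb2 and H2-T24 higher, H2-Q2 lower), against 8.4% of all genes under the filter. H2-DMb2, the second beta chain of H2-DM, had 12, 14 and 11 fragments in the knockouts and 8, 7 and 3 in the wild types, or 0.412, 0.473 and 0.415 against 0.277, 0.233 and 0.107 FPKM. H2-T24 had 1.21, 0.894 and 0.846 against 0.555, 0.800 and 0.745 FPKM, while its fragments, 44, 33 and 28 against 20, 30 and 26, did overlap. H2-Q2 had 4, 4 and 1 against 6, 7 and 5 fragments. With the filter lowered to an FPKM of 0.1 in at least 3 libraries, 29 members were tested and 0 passed (3 at an unadjusted p under 0.05), and 0.101% of all genes tested that way did. Adjusted p there was 0.247 for H2-DMb2, 0.401 for H2-T24 and 0.525 for H2-Q2 (limma).

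The remaining low members were H2-Q6 (13 to 36 fragments, the highest in knockout 2), H2-Q7 (24 to 40), H2-Q10 (6 to 24), H2-Q1 (1 to 12), H2-M2 (0 to 8), H2-Ob (0 to 17) and H2-Oa (0 to 4), the last 2 being chains of the H2-DM inhibitor H2-DO. H2-M10.2, H2-M10.4 and H2-Eb2 had 3 fragments each over all 6 libraries. H2-Q6, H2-Q7, H2-Q10, H2-Q1 and H2-M2 were tested with the lowered filter and not called (adjusted p 0.566 to 0.819, limma). H2-Ob, H2-Oa, H2-M10.2, H2-M10.4 and H2-Eb2 were under that filter too. H2-Ob had 8, 17 and 0 fragments in the knockouts and 7, 7 and 13 in the wild types, which overlapped. A count of 0 in a library allows up to 3 fragments. For H2-Oa, H2-M10.2, H2-M10.4 and H2-Eb2 the fragments were too few to tell a difference from none.

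**Figure D4:**
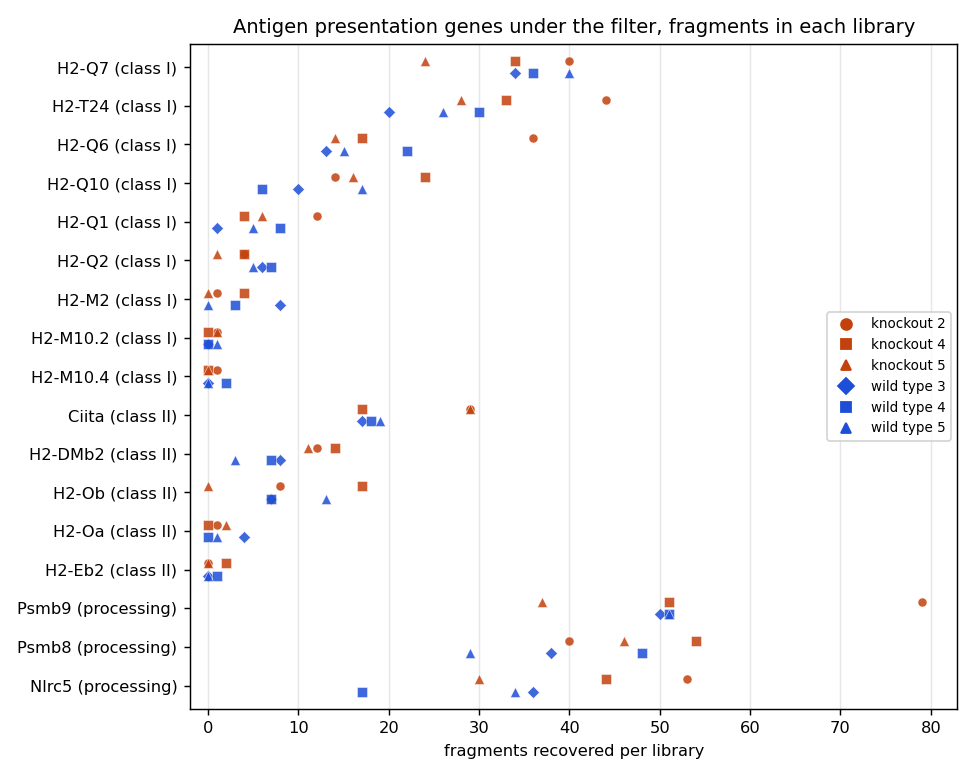
Fragments recovered from the FPKM in each library for the 17 members under the filter, 1 point per library, colours and shapes as for the tested members. All values are at or below 54 fragments apart from Psmb9 in knockout 2 (79), and in fragments the groups are apart only in H2-DMb2 and H2-Q2.

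Other genes of the pathway, from lists by function, were also not called. Of 46 further genes of peptide supply, class II processing and interferon signalling, 45 were tested, 29 higher and 16 lower. Of these, 0 passed the adjusted threshold with limma, and 0 with voom. At an unadjusted p under 0.05 (limma) there were 6, all higher. That is 13.3%, against 17.6% of all tested genes (10.6% higher, 6.99% lower). In class I supply, 9 of 14 genes were higher with a median log2 of 0.02. Its most abundant members were the chaperone genes Calr (389 ± 1.51 against 408 ± 9.45 FPKM, SD, n = 3) and Pdia3 (221 ± 7.98 against 235 ± 11.7). In class II processing, 9 of 11 tested genes were higher with a median of 0.04, led by the lysosomal proteases Ctsb (135 ± 1.54 against 134 ± 4.96) and Lgmn (128 ± 2.40 against 117 ± 4.66). In transcription and interferon signalling, 11 of 20 were higher with a median of 0.00. There Rela, a subunit of NF-kappaB, had 28.0 ± 1.70 against 30.5 ± 2.07, and Ifngr1, a chain of the interferon-gamma receptor, had 22.0 ± 0.837 against 22.0 ± 0.686.

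Interferon-stimulated genes, which rise together with MHC genes under interferon, had 13 of 18 members tested, 9 higher, 4 lower and 0 called, with a median of 0.03. Ifi27 had 39.6 ± 1.23 against 44.0 ± 2.53 FPKM and Bst2 18.6 ± 3.02 against 18.6 ± 2.19. Class I-like genes outside the MHC had 0 of 5 tested genes called, with Fcgrt, the receptor that carries antibodies, at 88.0 ± 1.15 against 89.5 ± 3.04 and Cd1d1, which presents lipids, at 13.7 ± 1.61 against 11.6 ± 1.18. Of the 3 tested genes of T cell co-stimulation 0 were called. Cd40 had 1.94 ± 0.387 against 1.23 ± 0.238 and Icosl 1.66 ± 0.217 against 1.498 ± 0.106.

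Marker lists of cells that carry class II were set beside the class II values. The 10 macrophage markers, of which 0 were called, summed to 326 to 343 FPKM in the knockouts and 329 to 355 in the wild types, so that the ranges overlapped (Cd68 122 ± 6.77 against 126 ± 4.91, Csf1r 59.4 ± 2.52 against 61.2 ± 1.73). The 10 dendritic cell markers summed to 8.32 to 8.71 against 7.65 to 9.34, with 6 of them under an FPKM of 1 in every library (Batf3 2.61 ± 0.0543 against 2.63 ± 0.635, Zbtb46 2.18 ± 0.196 against 2.17 ± 0.213). The 7 B cell markers summed to 16.3 to 17.3 against 15.7 to 16.6, 4 of them under 1 in every library, most of the sum being Ebf1 (11.4 ± 0.475 against 11.4 ± 0.351), which other cells also express, and Cd79a (2.46 ± 0.621 against 2.20 ± 0.420). None of these lists held a called gene, and none of their markers was at 0 in all libraries. Their part in the class II values was not tested.

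Other marker lists differed more between the groups. The 6 mast cell markers summed to 10.8 to 19.4 FPKM in the knockouts and 34.3 to 40.4 in the wild types, without overlap. The protease gene Mcpt4 fell from 12.4 ± 0.868 to 3.04 ± 1.54 (log2 -1.80, adjusted p = 0.0425, limma), and 0 other genes of any marker list were called. The 8 middle ear epithelium markers summed to 2.65 to 96.7 against 384 to 728, led by the secreted proteins Bpifa1 (33.9 ± 51.6 against 449 ± 142) and Bpifb1 (0.233 ± 0.00412 against 37.4 ± 43.3). The 6 endothelial markers, of vessel lining cells, summed to 103 to 112 against 114 to 125, with Cdh5 at 41.5 ± 2.21 against 46.7 ± 1.84 and Cldn5 at 24.1 ± 3.29 against 29.0 ± 2.73. Of these 6 genes 4 were lower and 2 higher, and Kdr, named after its values were seen, was higher in each knockout (11.7 ± 0.269 against 10.4 ± 0.398). The summed levels of all 3 of these lists were lower in each knockout than in each wild type. At an unadjusted p under 0.05 (limma) there were 4 of 5 tested mast cell genes and 2 of 2 middle ear genes, all lower. Of the 6 endothelial genes 4 were at that p, 3 lower and 1 higher. The share over all tested genes was 17.6% (6.99% lower).

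The 7 neutrophil markers summed to 85.4 to 148 in the knockouts and 31.2 to 90.4 in the wild types, which overlapped. Of the 5 tested, 4 (80%) were higher in each knockout than in each wild type, against 15.2% of all tested genes. The same 4 were at an unadjusted p under 0.05 (limma), where 10.6% of all tested genes were higher. Among the 4 were S100a9 at 51.2 ± 14.9 against 19.3 ± 8.40 and Ngp at 31.1 ± 6.68 against 13.2 ± 5.83, and the median log2 of the 5 was 1.23. The 4 monocyte markers summed to 5.40 to 8.03 against 2.63 to 5.08, without overlap, with Plac8 at 4.66 ± 0.679 against 2.64 ± 0.847 and Chil3 at 0.902 ± 0.471 against 0.672 ± 0.261. The 8 T and NK cell markers summed to 3.19 to 3.89 against 2.70 to 3.04, also apart as a sum, although 0 of the 8 genes were apart singly. Cd4 was at 2.23 ± 0.0794 against 2.08 ± 0.166 and Lck at 0.698 ± 0.219 against 0.380 ± 0.158. Of the 8, 7 were under an FPKM of 1 in every library, and the 1 tested gene was not called (log2 0.07, adjusted p = 0.676, limma). The 4 markers shared by leukocytes summed to 54.2 to 66.1 against 58.1 to 60.1, a sum that overlapped and was mostly Laptm5 (46.7 ± 4.98 against 48.9 ± 0.709). The other 3 were higher in each knockout than in each wild type, Coro1a among them at 9.72 ± 0.961 against 6.93 ± 1.15. Of the 3 tested genes of this list 2 (66.7%) were at an unadjusted p under 0.05 (limma), against 17.6% of all tested genes, and the median log2 was 0.44. Skeletal muscle markers overlapped as well, at 29.1 to 217 against 118 to 516 (Acta1 95.9 ± 70.0 against 183 ± 125, Mylpf 24.3 ± 17.02 against 48.8 ± 39.8).

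The labelled tissue was checked against markers of its own cells, and these were present in all libraries. The 5 hair cell markers summed to 20.5 to 23.2 against 17.6 to 18.8 FPKM, without overlap. Otof was at 8.24 ± 0.556 against 7.28 ± 0.349 and Myo7a at 5.95 ± 0.213 against 5.86 ± 0.426. All 4 tested genes of this list were higher (log2 0.02 to 0.61) and 0 were called. At an unadjusted p under 0.05 (limma) there were 2 (50%, against 17.6% of all tested genes). The 5 spiral ganglion neuron markers summed to 120 to 160 against 95.7 to 142, which overlapped. Nefm was at 45.8 ± 4.66 against 38.1 ± 5.89 and Tubb3 at 39.3 ± 6.84 against 36.4 ± 8.37. Of these 5 genes 4 were higher and 1 was lower, at a log2 of -0.51. The part of these cell types in the members' values was not tested.

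**Figure D5:**
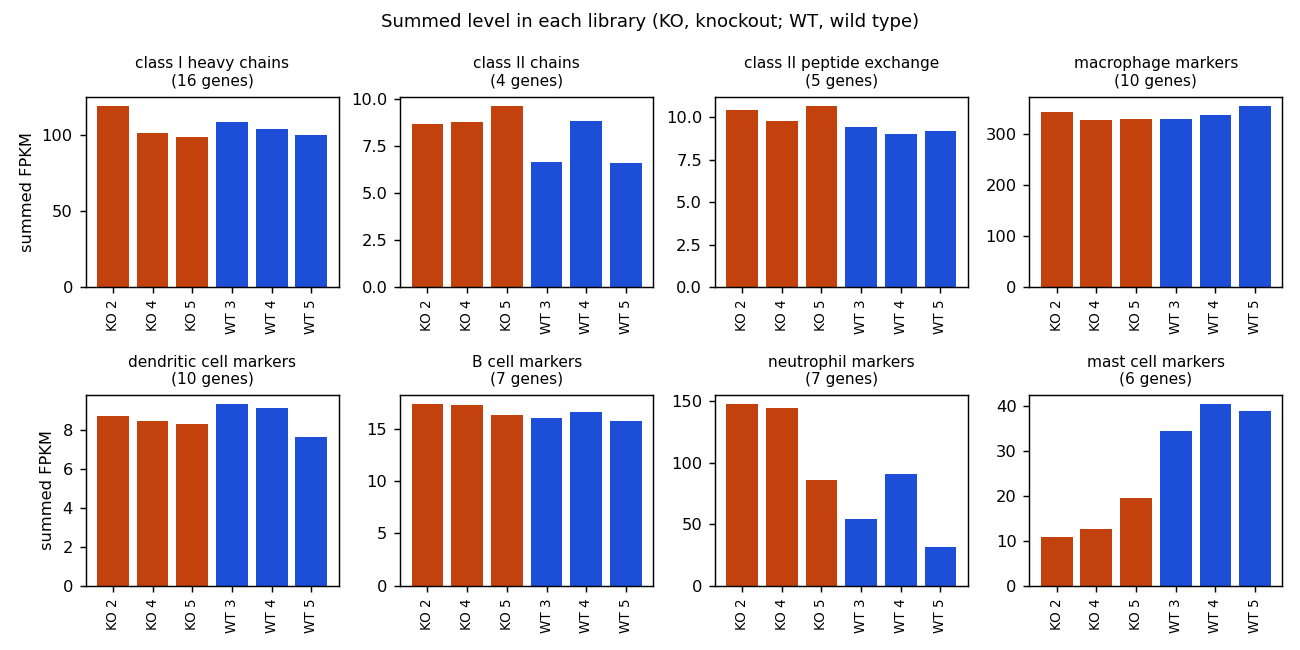
Summed FPKM in each library (KO, knockout; WT, wild type) for 3 groups of members and 5 marker lists, each panel with its own axis from 0. Class I heavy chains and macrophage markers overlap between the groups, class II chains overlap through wild type 4, class II peptide exchange genes are apart, and mast cell markers are lower in all 3 knockouts.

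The H2 members lie together on chromosome 17 between 33996017 and 37483552, among 107 other protein-coding genes. Of these neighbours 66 were tested, and 49 had a lower and 17 a higher mean in the libraries labelled knockout, with a median log2 of -0.06. On the rest of chromosome 17, 249 of 516 tested protein-coding genes were lower, with a median of 0.00. Among the neighbours 11 had an unadjusted p under 0.05 (16.7%, against 17.6% of all tested genes), a share near the background. All 11 were lower, and 6.99% of all tested genes were lower at that p. On the rest of the chromosome 84 of the 516 genes were at that p (16.3%), 45 of them lower. Only Prrt1, a gene of a synaptic membrane protein, was called. It fell from 3.76, 3.86 and 3.85 FPKM in the wild types to 2.63, 2.54 and 2.46 in the knockouts (log2 -0.45, SE 0.0610, adjusted p = 0.0458, limma), a call lost in 9 of the 17 alternatives that tested it. Neighbouring genes are not independent of each other, and the difference between members and neighbours was not tested.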

How the data were processed

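RNA of 6 cochlear libraries (3 knockout, 3 wild type; postnatal day 7) was measured. The deposited table holds FPKM values made by the authors, with gene positions. The submitters' processing notes name build GRCm38. Aligner, counting tool and strand setting were not given in the labels or notes. FPKM times GENCODE M21 exon length fell on whole multiples of a step per library (tolerance 0.01 fragment plus 1e-06 of the value) for 98.3% of genes in all libraries, which gave fragments and totals. Genes reaching an FPKM of 1 in 3 or more libraries entered limma (lmFit, eBayes with trend) on log2(FPKM + 1), two-sided, with Benjamini-Hochberg adjustment over all genes tested and a threshold of 0.05, all 6 libraries in the fit. The fit was first tested on simulated data. Intervals are 95%, and counting floors (3 fragments) cover counting error only.

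The members and lists were chosen with earlier results of these data known. Every member past the filter is named with its values, and those under it where their FPKM reached 0.1 in a library; the remaining ones are named to account for all. Of each list up to 4 called genes, or else the 2 with the highest mean, are named, and called neighbours up to 6. Alternatives were pseudocounts, filters, scalings, eBayes without trend, library weights, a replicate block, voom on fragments, leaving out each library, and sex as a covariate. Sex was read from the RNA of the Y-linked gene Ddx3y only. Work was done in R 4.3.3 with limma 3.58.1, and in Python 3.11.15 (pandas 2.3.3, numpy 2.4.6; figures, matplotlib 3.10.9).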

Additional observations from a re-analysis of the deposited data

How the results depend on the processing

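With 18 alternatives, 0 members and 0 other pathway genes were called in any of them. Of 297 member values 272 kept their direction. The other filters and the fit without trend leave a gene's estimate unchanged, so directions could not turn there and the 272 overstates stability. The count over all genes was 47, and 19 with no filter, 21 with FPKM of at least 0.1, 103 with at least 5, 19 without the trend, 104 with library weights, 24 with sex as a covariate, and 390 with voom. Leaving out knockout 2, 4 or 5 gave 15, 16 and 105, and leaving out wild type 3, 4 or 5 gave 12, 12 and 21. With the replicate block it was 22. The numbers are shared by 2 pairs only, whose deviations correlated at 0.141 and 0.15, and the block changed no call of a member. For region neighbours the count of 1 became 0 with no filter, the filter at 0.1, sex or the replicate block, 2 with voom, and 0 to 1 with 1 library left out. It was also 0 with the filter at 5, under which Prrt1 was too low to be tested. Directions turned, all uncalled, for H2-M3 (-0.012) and H2-M5 (-0.016) with quantile normalization, B2m (-0.0053) with median-ratio scaling, H2-Q4 (0.056) and H2-T23 (0.046) with sex, and H2-D1 (-0.015), H2-K1 (-0.011), B2m (-0.016) and Tap1 (0.026) with the replicate block; the cause was not tested. Leaving out 1 library gave log2 fold changes of -0.039 to 0.096 for H2-D1, -0.055 to 0.073 for H2-K1, -0.14 to 0.25 for H2-M3, -0.026 to 0.094 for H2-M5, -0.18 to 0.056 for H2-Q4, -0.088 to 0.033 for H2-T23, -0.0094 to 0.21 for H2-Aa and -0.029 to 0.055 for B2m. Without a change of sign, H2-Ab1 ranged from 0.082 (without wild type 5) to 0.39 (without wild type 4), Cd74 from 0.15 (without knockout 4) to 0.33 (without knockout 5), H2-DMa from 0.0024 (without knockout 5) to 0.097 (without knockout 2) and Tap1 from -0.16 (without wild type 5) to -0.0012 (without wild type 4). The difference in mean Neu4 FPKM was 0.00181, and -0.0110 to 0.0158 with 1 library left out. All 6 class II genes stayed higher under every alternative that tested them except without wild type 5, where H2-Aa turned. Low fragment counts limit the class II, immunoproteasome and regulator genes.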

Other observations

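Among 7 further H2- genes that are annotated as pseudogenes and so fell outside the members, H2-Pb had a higher mean FPKM than any class II gene. It is a class II pseudogene of only 514 exon bases (chromosome 17, 34073762 to 34076167, minus strand). In fragments over all libraries it had 668, below Cd74 (1155) and H2-DMb1 (1149). The FPKM of H2-Pb was 14.8, 16.0 and 15.004 in the knockouts (2, 4 and 5), and the wild types (3, 4 and 5) had 8.25, 10.9 and 14.5. Each knockout lay above each wild type in FPKM, while the fragments, 127, 139 and 117 against 70, 96 and 119, did overlap. Words that H2-Pb shares with other genes were not counted. The log2 fold change was 0.45 with an interval of 0.06 to 0.84 and an adjusted p of 0.236 (limma), on 70 to 139 fragments per library. H2-Pb was named after its values were seen. The other 6 (H2-K2, H2-Q5, H2-T10, H2-Bl, H2-T-ps and H2-M6-ps) had at most 20 fragments in any library. H2-T-ps had 3 and 5 fragments in knockouts 4 and 5 and 0 in the other 4 libraries, where 0 allows up to 3.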
